A study of Oryza sativa with 18 samples.

Results

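The open regions described here are those with the lowest peak values in a list of accessible chromatin in rice leaves. The list gives every region a whole-number peak value between 10 and 18, and the members are the regions on chromosomes 1 to 12 chosen by a value of 10, 11 or 12. There were 2857 of them among 29831 chromosomal regions and 29978 regions in all. The highest value, 18, equals the number of libraries in the study, but the sources used here do not define the value, and it is used below as a rank of the regions. Because the value itself chose the regions, their number, width and peak position are given as a description without a test.

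The list comes from ATAC-seq of leaves of the rice (Oryza sativa) variety Azucena, taken from the second leaf of hydroponic plants 14 days old. The 18 libraries formed 9 groups of 2: controls at 30 °C (0.5, 2 and 4 h), plants moved to 40 °C (0.5, 2 and 4 h), plants put back at 30 °C for 2 h after 2 h at 40 °C, plants with their roots in air for 2 h, and plants put back in liquid for 2 h after 1.5 h in air. Both recovery durations are those of the series' design text, while their sample labels give a time of 4 h. The plants with roots in air, and those put back in liquid, are listed at 30 °C. One list serves the whole series and holds no value per library, so no treatment, replicate or time point can be compared, and the depth is unknown. Errors below are standard deviations over the 12 chromosomes, which are parts of 1 list and not biological replicates.

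In ATAC-seq a transposase cuts and tags DNA that is free of nucleosomes, and cuts pile up at promoters, enhancers and other stretches held open by bound proteins. Such stretches often lie close together around one gene, and a broad opening can be listed as several regions when the signal dips between them.

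The regions of lowest peak value were few and short, and many had the smallest width in the list. They made up 9.58% of the chromosomal regions but 3.26% of the open base pairs, 255.3 kb of 7835 kb. They had a median width of 78 bp (quartiles 72 and 95 bp), against medians of 183 bp for peak values 13 to 17 and 432 bp for 18. No listed region was shorter than 72 bp, and 977 of the 2857 (34.2%) were exactly that long, against 4.64% of regions at 13 to 17 and 0.376% at 18. Of the 2857, 2725 (95.4%) were under 150 bp. Only 32 reached 200 bp.

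**Figure D1:**
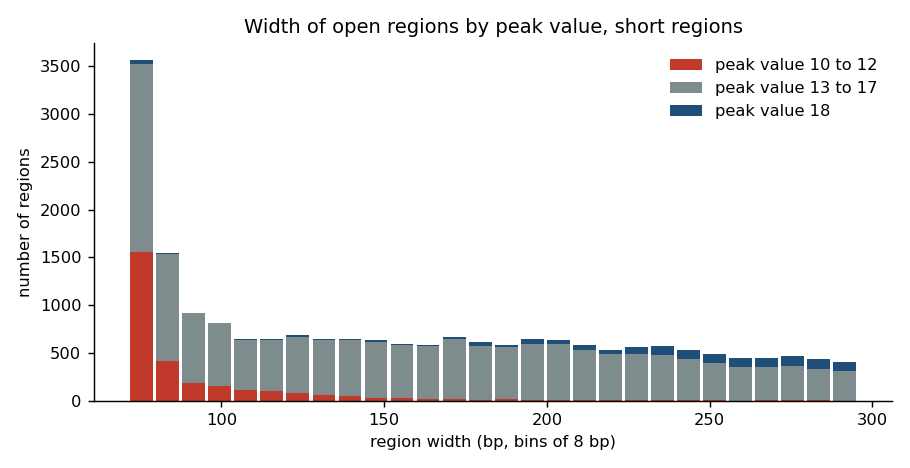
Number of chromosomal open regions (vertical axis) by width in bins of 8 bp (horizontal axis, short regions only), stacked by peak value. Regions of 10 to 12 crowd the shortest bin, which starts at 72 bp, and nearly vanish beyond 150 bp, whereas those of 18 appear mainly among wider regions.

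Read the other way, the lowest values were common among the shortest regions and almost absent from the wide ones. Among regions of exactly 72 bp they made up 50.2%, or 977 of 1946. The share was 28.0% above that and under 100 bp, 11.7% from 100 to under 150 bp, 2.60% from 150 to under 200 bp and 0.208% at 200 bp or wider. Length at the limit was also graded within the group. Of the regions with a peak value of 10, 76.9% were exactly 72 bp long, compared with 45.3% at 11 and 31.8% at 12. Just outside the group, at 13, the share was 14.7% and the median width 95 bp, compared with 79 bp at 12.

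The members of lowest value had their peak reported at the region's start. In all 13 regions of value 10 it was at the first base. The first base was also the reported peak in 46 of 459 regions at 11 (10.02%), in 37 of 2385 at 12 (1.55%) and in 0.529% of regions at 13. How ties are reported is not stated in the file, so the side of the peak is not read as a trait of these regions.

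The 13 regions of value 10, the lowest in the list, lay on 6 chromosomes. Chromosome 1 held 3, from 2849190 to 2849279, from 28277550 to 28277621 and from 32752013 to 32752084. Chromosome 2 held 3, from 5092803 to 5092874, from 14282489 to 14282560 and from 28721641 to 28721756, the last being the widest of the 13 at 116 bp. Chromosome 6 also held 3, at 10153971 to 10154042, 10536512 to 10536583 and 28139145 to 28139216. Chromosome 11 held 2, from 6691794 to 6691865 and from 25579930 to 25580007. Chromosome 3 held 1, from 10134424 to 10134495, and chromosome 12 held 1, from 5639224 to 5639295.

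Of these 13, 9 had no neighbour within 1000 bp. The same held for 54.0% of all lowest regions and 55.3% of those at 13 to 17. For the 13, the nearest neighbour of any value lay between 219 bp and 22.4 kb away, with a median of 4.43 kb, and 4 had one within 1000 bp. The closest of these 4 was the region on chromosome 12, which stood in a run of 8 regions, 219 bp from a neighbour of value 15 and 817 bp from one of value 18. The nearest region of value 18 was a median of 19.6 kb away and at most 95.4 kb, for the first of those on chromosome 11. With 13 regions these values carry no comparison.

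The 5 widest members all had a value of 12. The widest reached 281 bp (chromosome 8, 8959685 to 8959965), and another on chromosome 1 (31981736 to 31982007) reached 272 bp. A member of 269 bp lay on chromosome 5 (22241433 to 22241701), one of 266 bp on chromosome 10 (22014955 to 22015220) and one of 255 bp on chromosome 6 (22656349 to 22656603). Of these 5, 4 had a neighbour within 1000 bp, at 199 to 882 bp, and the one on chromosome 6 belonged to a run of 11 regions. Which genes lie at any of these positions was not analysed here.

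The regions of lowest peak value were spread over the chromosomes in nearly the same proportion everywhere. They were 9.54% ± 0.433 of the regions of a chromosome (SD, n = 12 chromosomes), from 8.88% on chromosome 8 to 10.3% on chromosome 1. Their number per Mb followed the number of open regions as a whole and ran from 4.83 on chromosome 11 to 10.1 on chromosome 1, with a mean of 7.48 ± 1.54. By comparison, the share of regions with value 18 was 22.7% ± 1.99 over the same chromosomes. The sequence length was taken as the end of the last region on each chromosome.

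Along the chromosomes the share was level too. Over 10 equal parts of a chromosome it lay between 8.90% ± 2.19, in part 8, and 10.2% ± 2.37, in part 1 (SD, n = 12 chromosomes), so that the parts differed by less than the spread between chromosomes. Tested at equal width, 57.7% ± 6.21 of the lowest regions and 56.9% ± 4.66 of those at 13 to 17 lay in the outer 25% at either end of a chromosome, a difference of 0.754 percentage points ± 5.13 that was positive on 6 of 12 chromosomes (exact permutation of the signs of the 12 chromosomal differences, two-sided, p = 0.612, Benjamini-Hochberg adjusted over 8 tests 0.612). Equal width means here that the classes were compared within 8 width strata, from exactly 72 bp to 150 bp and wider, before averaging.

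**Figure D2:**
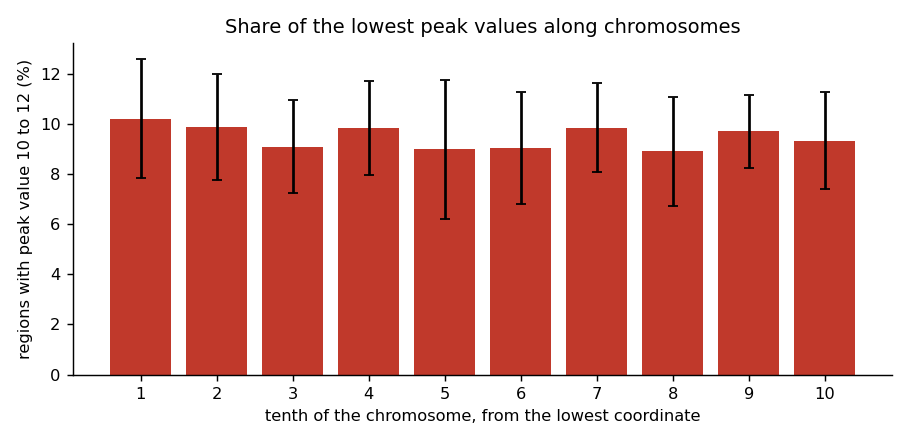
Percentage of open regions that had a peak value of 10 to 12 (vertical axis) in each of 10 equal parts of a chromosome, counted from the lowest coordinate (horizontal axis). Bars are means and error bars standard deviations over 12 chromosomes, and all 10 means lie between 8.90% and 10.2%.

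Single full bins of 1 Mb varied widely, with the incomplete last bin of each chromosome left out. They held 7.60 ± 4.17 of the lowest regions (SD over 366 bins), and 5 bins held 0. Of these, 2 lay on chromosome 12, from 16000001 to 17000000 and from 18000001 to 19000000, with 4 and 25 open regions of other values. The rest were the bins starting at 19000001 on chromosome 3 (16 regions), at 18000001 on chromosome 6 (17 regions) and at 15000001 on chromosome 8 (40 regions). The fullest bin, from 6000001 to 7000000 on chromosome 3, held 22 among 166 open regions, and the next, from 26000001 to 27000000 on chromosome 6, held 21 among 154. The number of lowest regions per bin rose with the number of all regions, which include them (Spearman rho within chromosomes 0.73 ± 0.080, SD, n = 12 chromosomes). Their share did so little, with a rho of 0.078 ± 0.125, negative on 5 of 12 chromosomes. In single bins the share reached 27.3% (3 of 11 regions, chromosome 4 from 3000001 to 4000000). Next came 24.0% (6 of 25, chromosome 10 from 9000001 to 10000000) and 22.2% (12 of 54, chromosome 6 from 4000001 to 5000000). In the 45 bins with fewer than 40 regions the pooled share was 8.84%, and in the 48 bins with 120 or more it was 10.1%. These are descriptions without a test.

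Over any width, the lowest regions lay about as far from a region of value 18 as other regions did. The median edge-to-edge distance was 11.1 kb, with quartiles of 3.04 and 32.6 kb, against 12.6 kb for regions at 13 to 17 and 10.1 kb for regions of 18 to another region of 18. Within 1000 bp of a region of 18 lay 425 of the 2857 (14.9%), and within 150 bp 110 (3.85%). At the other end, 146 (5.11%) were 100 kb or more away. The same shares at 13 to 17 were 13.2%, 2.80% and 4.40%.

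Taken at equal width, the lowest regions were on average slightly farther from a region of 18 than those at 13 to 17, but the difference was not stable. The geometric mean distances were 8572 and 7395 bp, a ratio of 1.16 (mean log10 difference 0.0641 ± 0.0758, SD, n = 12 chromosomes), and exceeded 1 on 10 of 12 chromosomes (exact permutation p = 0.0181, adjusted 0.0361). Without regard to width the ratio was 0.920 and pointed the other way (exact permutation p = 0.0605, adjusted 0.163). Among regions of exactly 72 bp it was 1.04 (exact permutation p = 0.509, adjusted 0.873), and there the medians were in the opposite order, 10.4 kb for the lowest regions and 11.5 kb for those at 13 to 17. Without chromosomes 4, 9 and 10 the ratio was 1.12 and did not pass (exact permutation p = 0.102, adjusted 0.175).

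**Figure D3:**
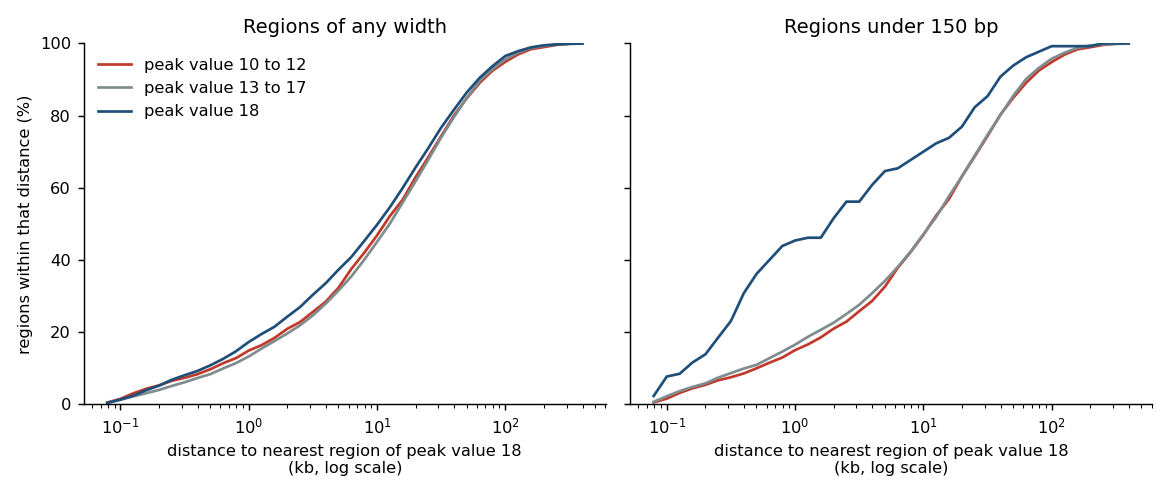
Cumulative percentage of open regions (vertical axis) within a given distance of the nearest other region of peak value 18 (horizontal axis, kb, log scale), for regions of any width (left) and under 150 bp (right). The lines for 10 to 12 and 13 to 17 nearly coincide in both panels, while the 130 regions of 18 in the right panel lie nearer to another region of 18.

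Short regions of value 18 were rare, since 130 were under 150 bp, 47 under 100 bp and 25 exactly 72 bp. Under 150 bp they lay nearer to another region of 18, at a median of 1.76 kb. From the 2725 lowest regions under 150 bp to a region of 18 the median was 11.1 kb. The contrast was smaller at narrower limits. At 72 to 99 bp the medians were 2.06 kb for regions of 18 and 10.6 kb for the lowest. At exactly 72 bp they were 4.17 and 10.4 kb. With width strata under 150 bp, the geometric mean distance of the lowest regions was 3.76 times that of the regions of 18, higher on 10 of 12 chromosomes (exact permutation p = 0.00635, adjusted over the 8 tests against 18 0.0254). The nearest neighbour had a value of 18 for 20.2% of the lowest and 48.7% of the short regions of 18, a difference of -28.5 points ± 18.2 that was negative on 11 of 12 chromosomes (exact permutation p = 0.000977, adjusted 0.00781). In the outer 25% at either end of chromosomes lay 55.9% and 34.8%, a difference of 21.1 points ± 24.8 (exact permutation p = 0.0171, adjusted 0.0456). Fewer of the lowest had a neighbour within 1000 bp, by -17.4 points ± 26.5, which did not pass after adjustment (exact permutation p = 0.0449, adjusted 0.0898).

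With the stratum of 150 bp and wider included, in which regions of 18 are mostly much wider than the lowest, the same contrasts were smaller for distance (2.31 times, exact permutation adjusted p = 0.0137), for nearest neighbours of 18 (-13.8 points, adjusted p = 0.0283), for the outer share (12.6 points, adjusted p = 0.0375) and for neighbours within 1000 bp (-13.0 points, adjusted p = 0.0137), and all 4 passed. For neighbours within 1000 bp the narrowest regions did not share this direction, which was not tested. Pooled over chromosomes, 47.7% of the lowest and 46.8% of regions of 18 had one at 72 to 99 bp. At exactly 72 bp the shares were 48.3% and 24.0% (6 of 25). On each chromosome only strata holding both classes count, so 1764 of the 2857 lowest regions entered, and 1632 in the strata under 150 bp. Over any width the distance was 1.13 times as large and did not pass (exact permutation adjusted p = 0.186), nor did the other 3.

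The member farthest from a region of 18, at 387.3 kb, lay on chromosome 12 (14037422 to 14037493). It was followed on chromosome 4 by the region from 3958681 to 3958814, at 375.5 kb. Then came members on chromosome 6 at 313.6 kb (4727175 to 4727252) and 290.8 kb (4667427 to 4667505). The fifth, on chromosome 4 from 3250979 to 3251050 at 285.3 kb, also had no region of any value within 213.9 kb. At the other extreme, a 72 bp region on chromosome 12 from 6916363 to 6916434 stood 72 bp from a region of 18, the smallest gap between any regions in the list. At 73 bp followed members on chromosome 8 (16344897 to 16344968) and chromosome 11 (14379237 to 14379313). All 8 had a value of 12.

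The clearest difference concerned close neighbours of any value. At equal width, fewer of the lowest regions had a neighbour within 1000 bp than of the regions at 13 to 17, 45.0% ± 3.78 against 51.5% ± 3.35 (SD, n = 12 chromosomes). The difference of -6.59 percentage points ± 4.36 was negative on 12 of 12 chromosomes (exact permutation p = 0.000488, with no smaller value possible, adjusted 0.00195). It ranged from -14.5 points, on chromosome 9, where the shares were 39.0% and 53.5%, to -0.178 points, on chromosome 12, where they were 50.2% and 50.4%. The lowest regions were also less often within 150 bp of a neighbour, 13.8% ± 2.54 against 17.7% ± 1.75, again on 12 of 12 chromosomes (difference -3.91 points ± 2.11, exact permutation p = 0.000488, adjusted 0.00195). Their geometric mean gap to the nearest neighbour was 1328 bp, 1.26 times the 1052 bp of the others (mean log10 difference 0.101 ± 0.0739, higher on 11 of 12 chromosomes, exact permutation p = 0.000977, adjusted 0.0026).

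The direction of these differences depended on width. Over regions of any width 45.6% of the lowest and 44.2% of those at 13 to 17 had a neighbour within 1000 bp, a difference of 1.45 points in the opposite direction (exact permutation p = 0.204, adjusted 0.408). For neighbours within 150 bp the unmatched difference was 2.21 points, with more such neighbours in the lowest class, and passed (exact permutation p = 0.0044, adjusted 0.0352). Regions at 13 to 17 had a neighbour within 1000 bp in 54.5% of cases when they were under 100 bp wide and in 44.7% over all widths. Among regions of exactly 72 bp, where no width difference remains, the averages over chromosomes were 47.8% and 54.1%, a difference of -6.27 points that passed (exact permutation p = 0.00781, adjusted 0.0312). At that width the difference for neighbours within 150 bp was -3.16 points and did not pass (exact permutation p = 0.104, adjusted 0.279). With regions under 150 bp from a neighbour left out, the difference for neighbours within 1000 bp was -5.05 points and just missed the threshold (exact permutation p = 0.00732, adjusted 0.0586).

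**Figure D4:**
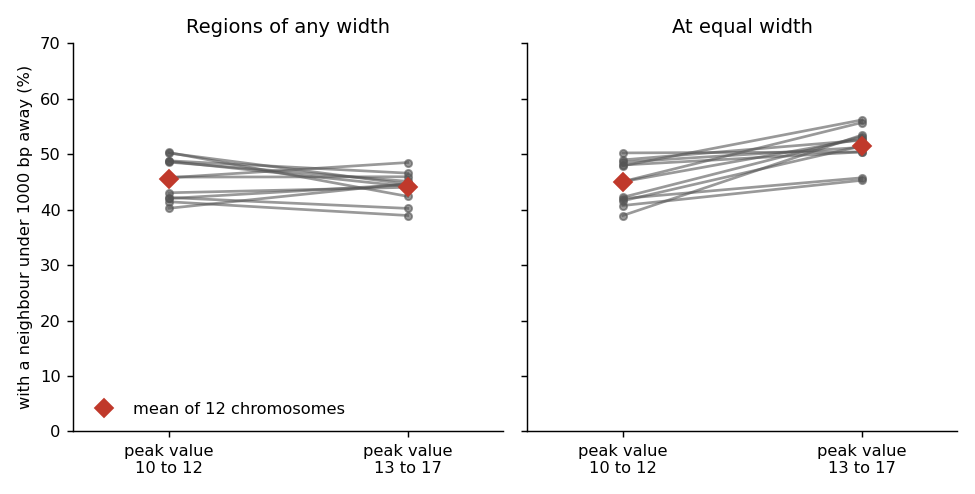
Percentage of open regions with a neighbour under 1000 bp away (vertical axis) for peak values 10 to 12 and 13 to 17, without regard to width (left) and at equal width (right). Each line joins the values of 1 of 12 chromosomes and diamonds are their means, 45.6% and 44.2% on the left and 45.0% and 51.5% on the right, where every line rises.

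Among regions of 72 to 99 bp the share with a close neighbour rose step by step with the peak value up to 17. For regions of 72 to 99 bp there were 3 of 12 at a value of 10, and it was 40.8% at 11 (167 of 409) and 49.3% at 12 (899 of 1822). Just outside the group, at 13, it was 52.3% (1168 of 2235), and it went on to 54.4% at 14, 61.3% at 15, 63.7% at 16 and 67.5% at 17 (27 of 40). At 18 it was 46.8% (22 of 47), a value that depended on the width limit. Under 150 bp it was 63.85% at 18 (83 of 130) and 62.7% at 17, and at exactly 72 bp 24.0% at 18 (6 of 25). The rise was not stepwise at exactly 72 bp, with 54.5% at 13, 53.8% at 14, 62.5% at 15 and 57.1% at 16 (8 of 14). For the regions of 72 to 99 bp the median gap to the nearest neighbour moved the opposite way to the share. It went from 1650 bp at 11 and 1040 bp at 12 to 843 bp at 13 and 529 bp at 15. The step from the group to the value just above it was small: against regions of 13 alone the difference at equal width was -2.81 points (exact permutation p = 0.0493, adjusted 0.158). Values 10 and 11 alone differed from 13 to 17 by -14.1 points (exact permutation p = 0.000488, adjusted 0.0013).

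**Figure D5:**
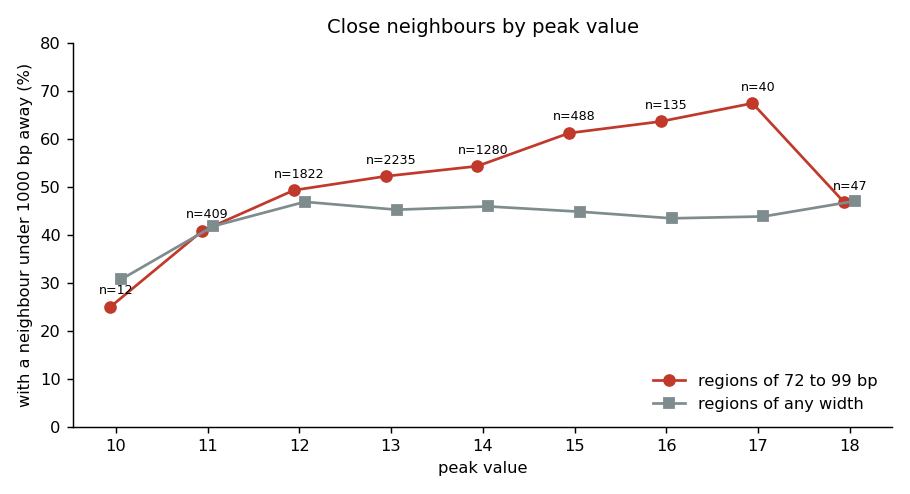
Percentage of open regions with a neighbour under 1000 bp away (vertical axis) by peak value (horizontal axis), for regions of 72 to 99 bp (circles, with the number of regions) and of any width (squares). Among regions of 72 to 99 bp the percentage climbs from 40.8% at 11 to 67.5% at 17 and is 46.8% at 18, where 47 regions count. Under 150 bp, not drawn, it is 63.85% at 18 (83 of 130). Regions of any width stay between 43.5% and 47.1% from 12 upwards.

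The lowest regions bordered long gaps about as often as others did, which was not tested. Of the 2857, 162 (5.67%) bordered a stretch of 64 kb or more without any region, compared with 5.48% at 13 to 17 and 5.82% at 18. Regions closer than 1000 bp were joined into runs, and 1542 of the lowest regions (54.0%) were alone, 684 (23.9%) were in pairs and 631 (22.1%) in runs of 3 or more, of which 178 were in runs of 5 or more. At 13 to 17 the shares alone, in pairs and in runs of 3 or more were 55.3%, 23.7% and 21.0%, for regions of any width.

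Within runs no preference of the lowest regions for the ends was detected. In runs of 3 or more, 340 of 631 (53.9%) stood at an end of the run, which is the 53.8% that an even spread over the places of the same runs gives. At equal width 55.5% ± 8.15 of the lowest and 50.3% ± 3.71 of the regions at 13 to 17 stood at an end, a difference of 5.20 points ± 8.66 that was positive on 8 of 12 chromosomes and did not pass (exact permutation p = 0.064, adjusted 0.102). With regions of 13 added to the lowest group and compared with 14 to 17, the difference was 4.91 points and passed (exact permutation p = 0.0249, adjusted 0.0398).

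The values of their neighbours were close to those of the list as a whole. Of 5712 adjacent positions along the chromosomes, 21.3% held a region of 18, which makes up 22.3% of all regions, and 14.2% a region of 13, which makes up 13.9%. Regions of 10, 11 and 12 took 0.07%, 1.70% and 7.41% of the adjacent positions and make up 0.0436%, 1.54% and 7.99% of all. At equal width the nearest neighbour had a value of 18 for 22.4% ± 4.37 of the lowest regions and 24.0% ± 3.22 of those at 13 to 17 (difference -1.60 points ± 3.42, negative on 8 of 12 chromosomes, exact permutation p = 0.137, adjusted 0.182). It was itself of 10 to 12 for 9.81% ± 2.62 and 9.17% ± 1.58 (difference 0.64 points ± 3.02, exact permutation p = 0.478, adjusted 0.546). Where a region of 18 lay within 1000 bp, it was on the lower-coordinate side of 224 lowest regions and on the higher-coordinate side of 201.

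The lowest regions stood next to each other about as often as their share of the list, since values of 10 to 12 filled 9.17% of the adjacent positions and make up 9.58% of all regions, which was not tested. In order along the chromosomes, 2354 had no lowest region directly beside them, 222 stretches held 2 in succession, 17 held 3 and 2 held 4. One stretch of 4 spanned 53.1 kb on chromosome 3, from 974259 to 1027379, with values of 11, 12, 12 and 11. The other spanned 68.1 kb on chromosome 10, from 19469067 to 19537196, with values of 11, 12, 12 and 12. The tightest stretch of 3 spanned 625 bp on chromosome 1, from 14452454 to 14453078, all with a value of 12 and widths of 90, 114 and 97 bp. It lay in a run of 7 regions without a region of 18, from 14451662 to 14453687.

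Among regions in runs of 2 or more the lowest were 1315 of 13536 (9.71%), close to their 9.58% of all regions. Of the 5297 such runs, 1186 (22.4%) held a lowest region, and 1064 of these held exactly 1. In 115 runs there were 2 and in 7 there were 3, the most in any run. Lowest regions alone made up 45 runs, all of them pairs. A region of 18 stood in 437 of the 1186 runs, which placed 480 of the lowest regions (16.8%) in a run with one. Of the regions at 13 to 17, 15.4% were in such a run, over all widths and without a test.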

How the data were processed

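ATAC-seq libraries were made from nuclei of ground frozen leaves and read from both ends, per the labels' protocols. Reads were aligned with Bowtie2 2.2.3, per the submitters' processing notes. Genome build, region caller and how 1 list was made from 18 libraries: not given in the sources used here. The deposited list gives start, end, peak value (attribute max) and peak position (maxpos) of each region. Coordinates are 1-based and used as the authors deposited them, and 0 columns hold values per sample. Width equalled that in the identifier in all 29978 rows.

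Gaps are edge to edge. Peak values 10 to 12 and 13 to 17 were compared per chromosome within 8 width strata (lower bounds 72, 73, 75, 80, 90, 100, 120 and 150 bp). Each stratum was weighted by the product of the class sizes over their sum. The signs of the 12 chromosomal differences were permuted in all 4096 ways (exact, two-sided), with Benjamini-Hochberg adjustment over 8 tests and a threshold of 0.05. Where fewer chromosomes could be compared, all sign patterns of those were used. There were 9 without chromosomes 4, 9 and 10. For the end of a run against 18 there were 10, and 9 under 150 bp. Values 10 to 12 and 18 were compared likewise, as a family of 8 tests of its own. Chromosomes are neither replicates nor samples, so these p-values describe how evenly a difference runs through this 1 list. Equally distant neighbours (6 regions) were resolved to the lower coordinate. The procedure was tested on simulated labels. Tools were Python 3.11.15, NumPy 2.4.6, pandas 2.3.3, SciPy 1.17.1 and matplotlib 3.10.9.

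The named regions are all of value 10, the 5 widest, the 5 farthest from and the 3 closest to a region of 18, the longest stretches, and the fullest bins. The stretch of 3 regions described, the tightest, was chosen after its values were seen, as were the limits of 72 to 99 bp, 64 kb and the bins of under 40 and of 120 or more regions. So were the bins named for their high share. The members and measures were chosen with earlier results of these data known. No genome of the files' build was at hand, so no sequence, gene or motif is reported.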

Additional observations from a re-analysis of the deposited data

How the results depend on the processing

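Over 93 alternative values from 13 settings, 61 kept both direction and side of the threshold, 18 lost the call, 1 gained it and 13 changed direction. Values are ratios for distance and gap and percentage points for shares, for the lowest regions against those at 13 to 17 unless 18 is named.

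Without width strata, the distance to a region of 18 (0.920), the gap to the nearest neighbour (0.927), neighbours within 1000 bp (1.45) and within 150 bp (2.21), the share in the outer 25% at either end (-0.807) and nearest neighbours of 18 (0.761) changed direction. Width was not held equal in these values. With regions of exactly 72 bp, a smaller list, distance (1.04) and neighbours within 150 bp (-3.16) no longer passed. With 10 and 11 alone, distance did not pass (1.13) and nearest neighbours of 18 turned to 1.80. With 13 moved into the lowest group, the end of a run passed (4.91). Against 13 alone, distance (1.07), gap (1.10) and neighbours within 1000 bp (-2.81) and 150 bp (-1.29) did not pass, and that outer share turned to -0.140. Without chromosomes 4, 9 and 10, distance did not pass (1.12) and that outer share turned to -0.196. Without regions under 150 bp from a neighbour, distance (1.07), gap (1.15) and neighbours within 1000 bp (-5.05) did not pass. What caused these changes was not tested.

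Against 18, with no width strata, distance (1.13), gap (1.04), neighbours within 1000 bp (-1.19), the outer share (2.85) and nearest neighbours of 18 (-2.99) did not pass, and neighbours within 150 bp (1.59), the end of a run (0.115) and nearest neighbours of 10 to 12 (-0.164) changed direction. Against 18 under 150 bp, gap (1.53) and neighbours within 1000 bp (-17.4) did not pass and the end of a run turned to 2.25. The other alternatives were not run against 18.

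The settings restricted to regions under 150 bp and with strata of 1 bp were added after seeing the data, and changed no call against 13 to 17. No paired analysis was possible because the list holds no value per library, and for the same reason leaving out a replicate was not run. Depth per library is unknown.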

Other observations

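Outside chromosomes 1 to 12, 2 of 147 regions (1.36%) had the lowest peak values, against 9.58% on those chromosomes. Width was not held equal here, and the difference was not tested. Of 114 regions on ChrC and ChrM (by their names the chloroplast and mitochondrial genomes), 2 (1.75%) had a value of 10 to 12, and 92 had 18. The one on ChrC ran from 27431 to 27502 with a value of 11, and the one on ChrM from 279622 to 279693 with a value of 12. Both were 72 bp long with the peak reported at the first base, and none of the 33 regions on ChrSy and ChrUn had so low a value. So few regions carry no comparison.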
